A study of Mus musculus with 5 samples.

Results

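The 8 genes described here encode GTPases that interferon-gamma induces: the guanylate-binding protein genes Gbp2, Gbp3, Gbp4 and Gbp7, and the immunity-related GTPase genes Irgm1, Igtp, Ifi47 and Iigp1. They were chosen by name from 52542 gene rows, of which 15952 had at least 1 unique molecular identifier (UMI, a tag that marks 1 captured RNA molecule) in the cells kept, and all 8 had UMIs there. Single T cells were taken from brain tissue of 5 mice without the choroid plexus, sorted as CD45-positive, CD11b-negative and T cell receptor beta-positive. Of 1900 wells with 1 sorted cell, 1482 were kept: spike-ins aside, each held 400 or more UMIs, and no more than 30% of these came from mitochondrially encoded genes.

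All 5 mice carried loxP-flanked alleles of the glucocorticoid receptor (Grl1loxP/loxP) and had been through 2 days of foot shocks, with 14 shocks of 1 mA on the first day and 5 of 0.7 mA on the second, 14 days before collection. TAT-CRE, a Cre recombinase that enters cells as a protein, had been injected into the brain ventricles of mice 207, 208 and 215 (18, 18 and 19 weeks old), and PBS into those of mice 216 and 218 (19 and 16 weeks old). The series describes the injection as a knockdown of the receptor in the choroid plexus; no promoter limits which cells the protein can recombine. The receptor gene itself, Nr3c1, stood at 175, 141 and 156 UMIs per 1000000 (CPM) in the T cells of TAT-CRE 207, 208 and 215, against 191 and 222 CPM in those of PBS 216 and 218, a log2 fold change of -0.44 ± 0.29 (SE) that did not pass the test described below. Plates and amplification batches were not shared between mice, so plate effects and differences between mice cannot be told apart.

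TAT-CRE mice gave 311, 303 and 298 kept cells and PBS mice 296 and 274; the median UMIs per cell were 1953, 993 and 1600.5 for TAT-CRE 207, 208 and 215, against 1410 and 2660 for PBS 216 and 218. TAT-CRE 208 stood apart from the other libraries: it had the lowest depth, and ribosomal RNA genes took 28.3% of its UMIs, against 43.9% to 48.0% in the other 4. Beside a member's fold change in which it was the highest mouse, the value without it is given or said not to be testable. All 6 T cell markers (Cd3e, Cd3d, Cd3g, Trbc1, Trbc2 and Trac) had UMIs in every mouse, at a summed 3172 to 4279 CPM in TAT-CRE mice and 3334 to 3890 CPM in PBS mice. The defining markers P2ry12, Tmem119, Csf1r and C1qb of microglia, Cldn5, Flt1, Slco1a4 and Cdh5 of endothelium, Lyz2, Adgre1 and Fcgr1 of macrophages, and Cd79a of B cells had no UMI in any mouse. All 6 natural killer cell markers had UMIs, and their summed level was lower in TAT-CRE mice, at 40.8 to 140 CPM, than in PBS mice, at 180 and 276 CPM. The part of this difference in the results below was not tested.

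Interferon-gamma, released mainly by T cells and natural killer cells, binds the receptor chains IFNGR1 and IFNGR2 and activates the kinases JAK1 and JAK2. The signal acts on GAS elements (gamma-activated sites) in target promoters and induces IRF1, a factor that binds interferon-stimulated response elements (ISRE). Type I interferons act through the ISRE too, so many of these genes answer to both kinds of interferon. Guanylate-binding proteins are large GTPases that assemble on the vacuoles of intracellular bacteria and parasites. The smaller immunity-related GTPases fall into effectors that coat such vacuoles, among them Iigp1 (IRGA6) and Ifi47 (IRGD), and regulators that sit on the cell's own membranes, among them Irgm1 and Igtp (IRGM3). Irgm1 is also known in mice to protect CD4 T cells that are exposed to interferon-gamma from death.

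The promoters of these genes are shown for the GAS and ISRE elements described above. The genes were chosen as interferon-inducible, so the counts of matches are a description and not a test. Any part of these elements in the co-detection given below was not tested. RefSeq windows on GRCm38.p6, the assembly of mm10, run from 250 bases before to 50 bases after each start and were found for Gbp2, Gbp3, Gbp7, Irgm1, Igtp and Ifi47, but not for Gbp4 and Iigp1. A shortened ISRE core was searched as GAAANNGAA and the GAS element as TTCNNNGAA, on both strands. The ISRE letters were in the window of 5 of the 6 genes, against 8.56% of 32851 RefSeq windows of the same length, and the GAS letters in those of 2 of the 6 (Gbp7 and Igtp), against 8.30%. In the same 5 genes an ISRE match was followed by 1 more A, a longer form found in 3.44% of all windows; the length of the core was chosen after both results were known. Each stretch below reads 5′ to 3′ on the strand of its gene, with the ISRE letters in capitals (in Gbp2, Gbp3 and Gbp7 they stand on the opposite strand, so the capitals show their reverse complement); the stretch of Ifi47 runs into its start and has no match.
Gbp2 (chr3:142620580-142620638, plus strand): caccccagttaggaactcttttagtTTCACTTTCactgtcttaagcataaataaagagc
Gbp3 (chr3:142559975-142560039, plus strand): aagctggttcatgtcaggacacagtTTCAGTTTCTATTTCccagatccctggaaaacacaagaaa
Gbp7 (chr3:142530259-142530317, plus strand): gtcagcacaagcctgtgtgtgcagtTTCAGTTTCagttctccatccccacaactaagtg
Irgm1 (chr11:48871411-48871475, minus strand): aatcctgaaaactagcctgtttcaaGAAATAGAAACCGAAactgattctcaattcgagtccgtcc
Igtp (chr11:58199497-58199555, plus strand): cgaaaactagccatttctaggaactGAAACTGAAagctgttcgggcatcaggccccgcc
Ifi47 (chr11:49076527-49076636, plus strand): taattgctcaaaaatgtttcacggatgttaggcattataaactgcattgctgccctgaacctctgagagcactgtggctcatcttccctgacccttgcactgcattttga

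Gbp3 and Irgm1 each held 2 overlapping ISRE matches, which read as 1 run of capitals. In Igtp the GAS letters lie just before the ISRE, at bases -45 to -37 from the start, and the ISRE at -34 to -26. In Gbp7 a pair of GAS matches lies farther out, at -106 to -98 and -87 to -79, with the ISRE at -52 to -44. Gbp3 has another RefSeq start, whose window held neither pattern. A match is a run of letters and not a shown binding site, and no binding was measured here.

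The genes lie in a few clusters on the mm10 build (GENCODE M21 annotation). Gbp7 (chr3:142530342-142550149), Gbp3 (chr3:142560026-142573209) and Gbp2 (chr3:142620602-142638008) are neighbours on the plus strand of chromosome 3, whereas Gbp4 (chr5:105115767-105139586, minus strand) belongs to the cluster on chromosome 5. Irgm1 (chr11:48861968-48871683, minus strand), Ifi47 (chr11:49076587-49096974, plus strand) and Igtp (chr11:58199556-58207591, plus strand) are on chromosome 11, and Iigp1 (chr18:60376027-60392634, plus strand) is on chromosome 18. The deposited UMI counts are given per gene, so exons, introns and untranslated regions could not be told apart. Whether reads in introns were counted is not stated. Exons of Gbp4 overlap those of Gbp8 by 61 bases and those of Gbp9 by 60 on the same strand, and exons of Igtp overlap those of Irgm2 by 162. Of the distinct stretches of 50 bases in the last 1000 bases of the annotated transcripts, 9.86% in Gbp4 also occur in other genes (Gbp6, Gm43302 and Gbp9 the most often) and 6.55% in Igtp also occur in Irgm2. In the other 6 genes the share was 0% to 2.72%. The counts of Gbp4 and Igtp are uncertain to that extent.

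Taken over all kept cells, none of the 8 genes differed between TAT-CRE and PBS mice at the adjusted threshold given below. Igtp and Iigp1 were higher in each of the 3 TAT-CRE mice than in both PBS mice, the other 6 overlapped between the groups, and Ifi47, found in the most cells over all mice, was at nearly the same level in both. The summed level of the 8 genes was 799, 1046 and 801 CPM in TAT-CRE 207, 208 and 215, against 696 and 654 CPM in PBS 216 and 218, which gives 882 ± 142 CPM (SD, n = 3) and 675 ± 29.2 CPM (SD, n = 2). The groups did not overlap in this sum, and no p is given for it because it is a score over genes chosen by name. With CPM taken over UMIs outside the ribosomal RNA genes, the sum was 1474, 1459 and 1540 CPM in TAT-CRE 207, 208 and 215. In PBS 216 and 218 it was 1282 and 1166 CPM. On that scale TAT-CRE 208 was the lowest TAT-CRE mouse and not the highest, and the groups still did not overlap.

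Counts were summed per mouse and compared with edgeR's quasi-likelihood test over 6341 genes, with Benjamini-Hochberg adjustment and a threshold of 0.05. The test called 0 of the 8 members and 0 genes in all (0.0%), with 239 genes (3.77%) at an unadjusted p under 0.05 and 1 of the members, Igtp, among them; DESeq2 called 1 gene, Ifit3, which is not a member. Of the members, 7 had a positive log2 fold change, with a median of 0.40 over the 8, against 0.0013 over all genes tested. Every TAT-CRE mouse was above both PBS mice in 2 of 8 members, against 10.3% of the genes tested, and every TAT-CRE mouse was below them in 0 of 8, against 7.22%. Without TAT-CRE 208, 5 of 7 members tested had a positive value, with a median of 0.35, and 1 of the 7 stood above both PBS mice, against 13.3% of 6001 genes.

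**Figure D1:**
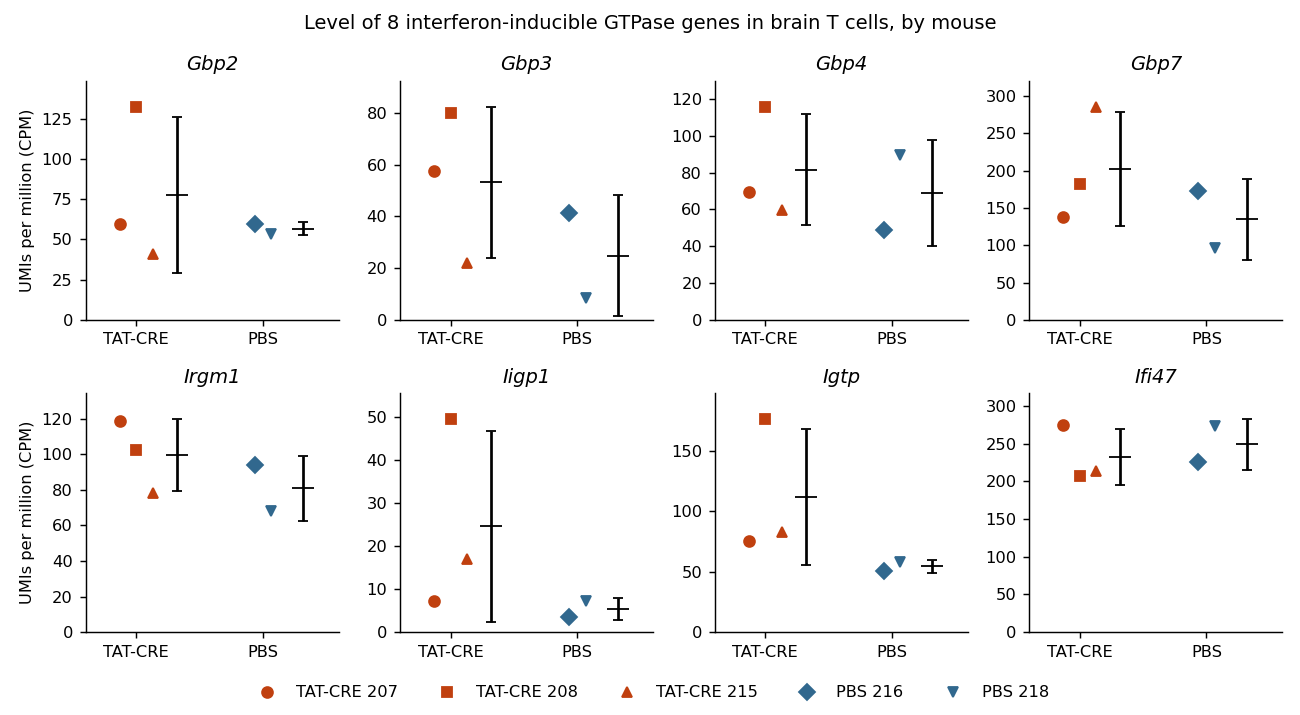
Level of each gene in UMIs per 1000000 (CPM) over all kept T cells, with 1 point per mouse and, to its right, the mean with SD of the 3 TAT-CRE and of the 2 PBS mice. Igtp and Iigp1 are the 2 panels in which no TAT-CRE point is as low as a PBS point, and TAT-CRE 208 (squares) is the highest mouse in Gbp2, Gbp3, Gbp4, Iigp1 and Igtp.

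Among the guanylate-binding proteins, Gbp2 had 59.2, 132 and 40.8 CPM in TAT-CRE 207, 208 and 215, against 59.5 and 53.6 CPM in PBS 216 and 218. The PBS mice fell inside the range of the TAT-CRE mice, and only TAT-CRE 208 was far from the rest. Its log2 fold change was 0.27 ± 0.45 (SE), and -0.10 without TAT-CRE 208, where the sign turned. Gbp3 stood at 57.8, 80.0 and 22.1 CPM in the TAT-CRE mice, against 41.4 and 8.34 CPM in the PBS mice. PBS 216 lay between the TAT-CRE mice and PBS 218 below them. The log2 fold change was 0.97 ± 0.71, and 2.53 ± 0.90 without PBS 216, 0.17 without PBS 218 and 0.77 without TAT-CRE 208; in TAT-CRE 215 and PBS 216 a single cell held 53.8% and 52.2% of the gene's UMIs.

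Gbp4 reached 69.3, 116 and 59.5 CPM in the TAT-CRE mice, against 48.6 and 89.4 CPM in the PBS mice. The groups overlapped, with a log2 fold change of 0.10 ± 0.40 that became -0.032 without TAT-CRE 208 and -0.23 without PBS 216. Gbp7 had 137, 182 and 286 CPM in the TAT-CRE mice and 173 and 96.5 CPM in the PBS mice. TAT-CRE 215 was the highest mouse and PBS 218 the lowest, and PBS 216 lay among the TAT-CRE mice (0.54 ± 0.40, with 0.057 without TAT-CRE 215, 0.14 without PBS 218 and 1.06 without PBS 216).

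Of the regulators among the immunity-related GTPases, Irgm1 was at 118, 102 and 78.2 CPM in TAT-CRE 207, 208 and 215, against 93.7 and 67.9 CPM in PBS 216 and 218. The groups overlapped (0.23 ± 0.37), and the sign turned to -0.020 without PBS 218. Igtp had 75.1, 177 and 83.3 CPM in the TAT-CRE mice and 50.5 and 58.4 CPM in the PBS mice. All 3 TAT-CRE mice were above both PBS mice, with TAT-CRE 208 far above the other TAT-CRE mice. The log2 fold change of Igtp was 0.87 ± 0.39, with an adjusted p of 0.999 in edgeR's quasi-likelihood test, and 0.61 ± 0.42 without TAT-CRE 208.

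Of the effectors, Ifi47 was found at 274, 207 and 214 CPM in the TAT-CRE mice and at 225 and 273 CPM in the PBS mice. The PBS values lay within the range of the TAT-CRE values, and the log2 fold change was -0.15 ± 0.28. Iigp1 was the rarest member, with 7.22, 49.7 and 17.0 CPM in the TAT-CRE mice against 3.60 and 7.15 CPM in the PBS mice. These levels rest on 41 UMIs in 15 cells: 5, 18 and 10 UMIs in 1, 6 and 4 cells of TAT-CRE mice, against 2 and 6 UMIs in 1 and 3 cells of PBS mice. Its log2 fold change of 1.89 ± 1.11 was the largest of the 8 and had the largest error, and TAT-CRE 207 and PBS 218 were nearly level. TAT-CRE 208 held 18 of the 41 UMIs, and without it Iigp1 was too rare for a test.

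A UMI of at least 1 member was found in 555 of the 1482 cells (37.4%). In TAT-CRE mice the share was 43.1% in mouse 207 (95% exact binomial interval 37.5% to 48.8%), 36.0% in mouse 208 (30.6% to 41.7%) and 35.9% in mouse 215 (30.5% to 41.6%), against 34.8% (29.4% to 40.5%) and 37.2% (31.5% to 43.2%) in PBS 216 and 218; these intervals cover counting error only. Because depth differed between mice, each cell was also thinned to 400 UMIs, which kept all cells and gave 21.4%, 21.1% and 19.4% in the TAT-CRE mice against 18.3% and 16.3% in the PBS mice. At this depth all 3 TAT-CRE mice were above both PBS mice, by 3.34 percentage points between the group means. Thinned to 800 UMIs, which leaves out the shallower cells and keeps 207 to 282 per mouse, the shares were 30.2%, 32.6% and 27.3% in the TAT-CRE mice against 28.6% and 24.9% in the PBS mice, so the groups overlapped, with TAT-CRE 215 below PBS 216. Of the single genes, Igtp had the lowest p at 400 UMIs, with 2.70%, 4.62% and 2.26% of cells in the TAT-CRE mice against 1.50% and 2.06% in the PBS mice. The exact two-sided permutation test over mice gave p = 0.2 for Igtp, in a design whose smallest possible p is 0.1. In the 20 empty wells, which held a median of 40 UMIs, 1 member UMI was seen, of Igtp.

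The members were found in few cells each. The median over cells with a UMI was 2 for 7 members and 3 for Gbp3, and 32.5% to 48.1% of those cells held a single UMI. Detection ran from Iigp1 in 1.01% of cells, through Gbp3 (2.23%), Gbp4 (4.79%), Gbp2 (4.93%), Irgm1 (5.60%), Igtp (7.15%) and Gbp7 (8.77%), to Ifi47 in 16.4%; this is the order over all kept cells, and it differed between mice, also at its ends: in TAT-CRE 208 Igtp was in 34 cells and Ifi47 in 29, and in TAT-CRE 215 Gbp3 was in 3 and Iigp1 in 4. Cells with a UMI of the gene held 2.28 UMIs of Igtp and 3.89 of Gbp7 on average, with the other 6 in between. Over 6805 genes found in 15 to 243 cells, as the members were, the median was 2.43 UMIs and the central 95% ran from 1.03 to 3.67. The other members lay inside that range and Gbp7 above it, and a single cell of TAT-CRE 215 held 27 UMIs of Gbp7.

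Cells with 2 or more members numbered 158 (10.7%), and they were deeper than the rest, with a median of 2671 UMIs against 1440 in the 927 cells with none. Expected numbers were therefore taken within each mouse and quartile of depth. Over the 28 pairs of members, cells with both genes were counted 256 times, against 179 expected, a ratio of 1.43, and 23 pairs were above 1. The ratio was 1.58, 1.03 and 1.69 in TAT-CRE 207, 208 and 215, against 1.24 and 1.46 in PBS 216 and 218, so TAT-CRE 208 showed next to no excess. Between the members and the 6 T cell markers the same ratio was 1.01 over 48 pairs. The markers were in 24.5% to 55.3% of cells and the members in 1.01% to 16.4%, so this ratio is not matched for detection. With other interferon-inducible GTPase genes it was 1.36 over 120 pairs. With the inhibitor genes Socs1, Socs3, Ptpn2 and Pias1 it was 1.22 over 32 pairs. These ratios describe cells of 5 mice, which are not replicates, and carry no test.

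**Figure D2:**
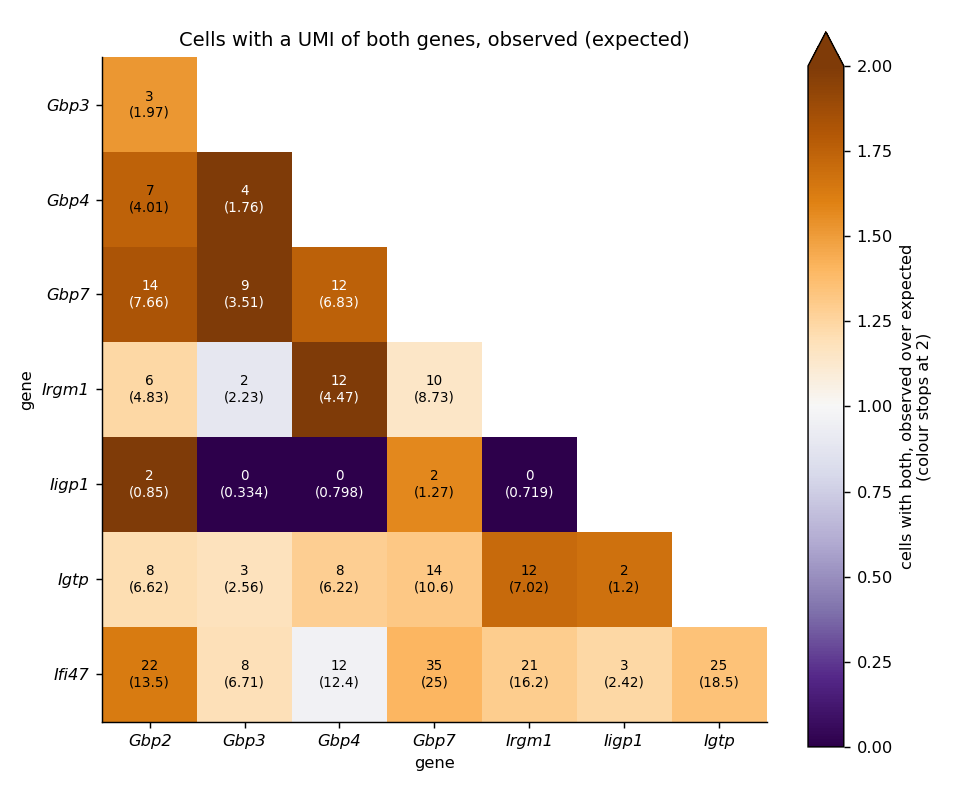
Cells with a UMI of both genes of a pair, as the observed number with the expected number in brackets; colour gives observed over expected, with both axes listing the genes. Most squares are above 1, the strongest being Gbp4 with Irgm1 at 12 against 4.47, and the 3 pairs at 0 all involve Iigp1.

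The pair with the largest ratio among those seen in at least 3 cells was Gbp4 with Irgm1, found together in 12 cells against 4.47 expected (2.68), although they lie on different chromosomes. Gbp3 and Gbp7, neighbours on chromosome 3, were together in 9 cells against 3.51 (2.56), and Gbp2 and Gbp7 in 14 against 7.66 (1.83). Pairs on the same chromosome had a ratio of 1.53 over 6 pairs, and pairs on different chromosomes 1.39 over 22. Gbp4 and Ifi47 were together in 12 cells against 12.4 expected, so the 2 genes were no more often in the same cell than their shares predict. Iigp1, with 15 cells, was never seen with Gbp3, Gbp4 or Irgm1, where under 1 cell was expected in each case.

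In 10 cells 4 or 5 members were found at once. They came from 4 of the mice: 3 cells from TAT-CRE 207, 3 from TAT-CRE 215, 1 from PBS 216 and 3 from PBS 218, and none from TAT-CRE 208. Gbp7 was in 9 of them, Gbp2 and Ifi47 in 8, Gbp4 and Igtp in 6, and Iigp1 in none. The 7 cells with 4 members had a median of 5218 UMIs and the 3 cells with 5 members one of 2202, against 1662.5 over all kept cells. A UMI of Cd4 and one of a Cd8 gene were both in 1 of the 10 cells. The part of depth or of doublets in these cells was not tested.

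Cells were split by the coreceptor UMIs they held: 630 had a UMI of Cd8a or Cd8b1 and none of Cd4 (Cd8 cells), 85 had a UMI of Cd4 and none of the Cd8 genes (Cd4 cells), 742 had neither and 25 had both. The classes differ in depth, with a median of 1985.5, 1717 and 1315.5 UMIs in Cd8 cells, Cd4 cells and cells with neither, and the lack of a coreceptor UMI names no kind of T cell. At least 1 member was seen in 40.2% of Cd8 cells (95% exact binomial interval 36.3% to 44.1%), 40.0% of Cd4 cells (29.5% to 51.2%) and 34.5% of cells with neither (31.1% to 38.0%). Thinned to 400 UMIs, the mean share over the 5 mice was 19.8% ± 2.56 in Cd8 cells, 20.5% ± 9.11 in Cd4 cells and 18.8% ± 2.96 in cells with neither (SD, n = 5). The differences between classes were smaller than the spread between mice.

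Counts of Cd8 and Cd4 cells, summed per mouse and compared with the mouse as a block in edgeR's quasi-likelihood test, called 2 of 728 genes tested (0.275%), with 47 (6.46%) at an unadjusted p under 0.05. Both were higher in Cd8 cells: Ccl5, a chemokine of cytotoxic T cells, at a log2 fold change of 2.18 ± 0.20, and Ly6c2, a surface marker of effector and memory T cells, at 3.21 ± 0.48; they are named because they were the only calls. Gbp7 and Ifi47 were the only members with enough UMIs to be tested, and neither passed, at -0.010 ± 0.58 and 0.31 ± 0.54. Gbp7 stood at 138, 173 and 216 CPM in Cd8 cells of the TAT-CRE mice and 152 and 147 CPM in those of the PBS mice. In Cd4 cells the same gene ranged from 113 to 338 CPM in the TAT-CRE mice and stood at 39.7 and 287 CPM in the PBS mice. With 8 to 23 Cd4 cells per mouse, the spread of Gbp7 was wider in that class than in Cd8 cells.

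The remaining members were followed as CPM per mouse in the 2 classes, with exact sign-flip tests over the 5 mice, whose smallest possible p is 0.0625. Gbp2 had 30 positive cells among the 630 Cd8 cells and 1 among the 85 Cd4 cells, that is 4.76% (3.24% to 6.73%) and 1.18% (0.0298% to 6.38%), intervals that overlap. Its level was higher in Cd8 than in Cd4 cells in 4 of 5 mice, by 44.9 ± 38.6 CPM (SD, n = 5), but these are the 4 mice without a Gbp2 UMI in Cd4 cells, and no p is given. Iigp1 was found in 5 Cd8 cells and in 0 of 85 Cd4 cells. A count of 0 there allows a share of cells with a UMI of up to 3.53% at 3 counts, and the 95% exact binomial interval runs to 4.25%; with no UMI in Cd4 cells of any mouse, Iigp1 could not be lower in Cd8 cells, and no p is given. Ifi47 was found in 18.6% of Cd8 cells (15.6% to 21.8%), 22.4% of Cd4 cells (14.0% to 32.7%) and 13.6% of cells with neither (11.2% to 16.3%). Thinned, its share was 7.28% ± 0.477, 9.55% ± 8.16 and 6.94% ± 1.19 (SD, n = 5). For the 6 members other than Gbp2 and Iigp1, the exact two-sided p of the difference between Cd8 and Cd4 cells was 0.6875 to 1.

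**Figure D3:**
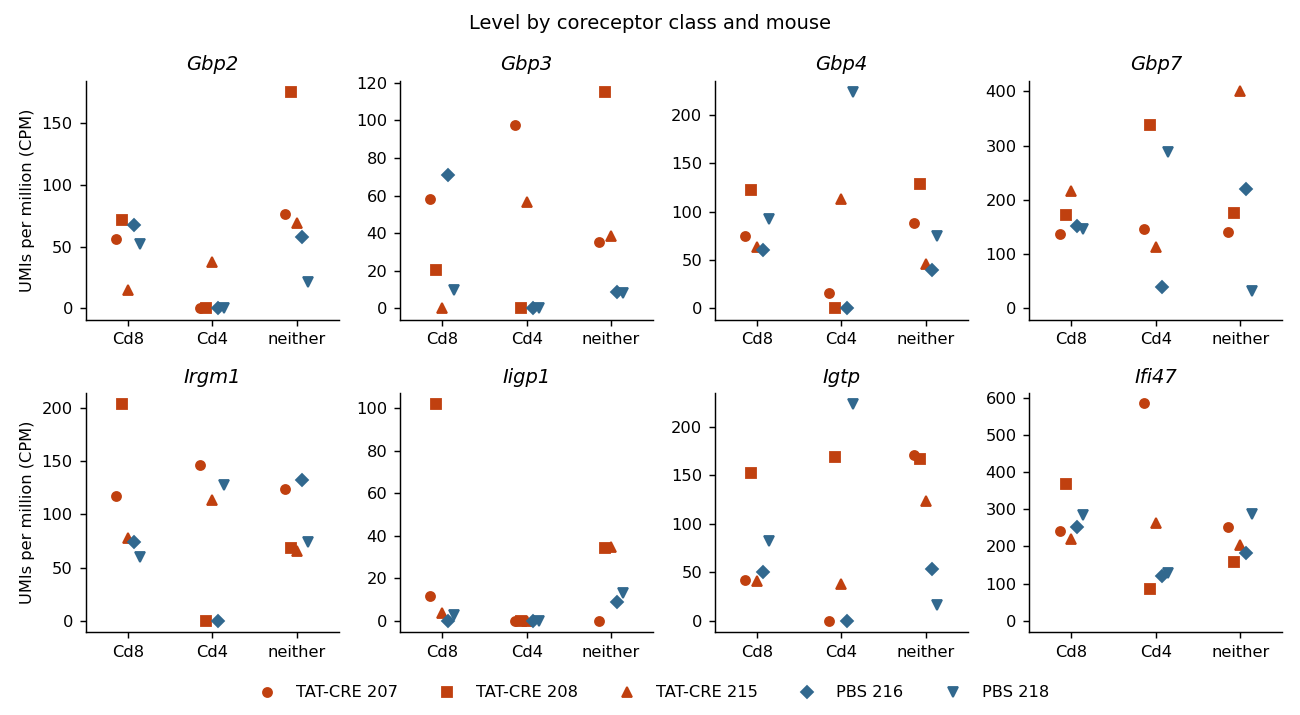
Level of each gene in UMIs per 1000000 (CPM), with 1 point per mouse, in cells with a Cd8a or Cd8b1 UMI, with a Cd4 UMI and with neither. In cells with neither, the 3 TAT-CRE mice (orange) lie above both PBS mice (blue) for Gbp2, Gbp3 and Igtp. How many of all genes do so in that class was not counted. In the Cd4 class Gbp2 has a UMI in 1 mouse and Iigp1 in none.

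When TAT-CRE and PBS mice were compared within a class, Cd8 cells showed no common direction and cells with neither coreceptor showed Igtp and Gbp2 higher in TAT-CRE mice, though no gene passed the adjusted threshold in either class. In Cd8 cells 7 members were tested, 3 with a positive log2 fold change and a median of -0.060, against -0.0076 over the 4013 genes tested. None was called, as was no other gene (0.0%; 123 genes, or 3.07%, at an unadjusted p under 0.05, and 0 calls by DESeq2). Irgm1 had the largest value, 0.81 ± 0.49 (0.62 without TAT-CRE 208), from 117, 204 and 78.1 CPM in the TAT-CRE mice against 74.2 and 59.8 CPM in the PBS mice. All 3 TAT-CRE mice were above both PBS mice, TAT-CRE 215 by little. How many of all genes do so in Cd8 cells was not counted. Igtp was at 42.1, 153 and 40.9 CPM in TAT-CRE mice and 50.6 and 82.2 CPM in PBS mice there, so that only TAT-CRE 208 exceeded the PBS mice (log2 fold change -0.060, and -0.60 without it).

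The comparison in cells without a coreceptor UMI was added after the values were seen. How many of all genes show no overlap between the groups in this class was not counted. Igtp stood at 171, 166 and 123 CPM in TAT-CRE 207, 208 and 215, against 52.9 and 15.9 CPM in PBS 216 and 218. Every TAT-CRE mouse was well above the higher PBS mouse. The log2 fold change was 2.11 ± 0.58 and was positive without each mouse in turn (1.40 to 3.11), but its adjusted p in edgeR's quasi-likelihood test was 0.999 over 3402 genes, none of which was called (0.0%; 109 genes, or 3.2%, at an unadjusted p under 0.05). The share of such cells with an Igtp UMI, thinned to 400 UMIs, was 5.19%, 4.52% and 3.15% in the TAT-CRE mice against 1.06% and 0.855% in the PBS mice.

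Gbp2 in these cells was at 76.5, 175 and 69.3 CPM in TAT-CRE mice, against 57.4 and 21.3 CPM in PBS mice, without overlap (1.33 ± 0.65, and 0.96 without TAT-CRE 208, 0.72 without PBS 218 and 2.13 without PBS 216). Gbp3, too rare to be tested there, was at 35.3, 115 and 38.5 CPM against 8.82 and 7.97 CPM, and the PBS values came from 2 and 3 UMIs. Gbp7 overlapped between the groups, at 141, 175 and 400 CPM in TAT-CRE mice and 221 and 31.9 CPM in PBS mice (0.95 ± 0.67), and its value turned on single mice: it was 2.86 without PBS 216, 0.085 without PBS 218 and 0.18 without TAT-CRE 215. Ifi47 and Irgm1 had negative values of -0.28 ± 0.38 and -0.35 ± 0.54.

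Whether the TAT-CRE effect differed between the 2 classes was tested with an interaction term and the mouse as a block. For Igtp the effect in Cd8 cells minus that in cells with neither was -2.35 ± 0.90 on the log2 scale, and for Gbp2 it was -1.98 ± 0.96, both with an adjusted p of 1.00 in edgeR's quasi-likelihood test. No gene of 4973 was called (0.0%; 167 genes, or 3.36%, at an unadjusted p under 0.05). The effect of TAT-CRE on these genes was thus not shown to differ between the classes.

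**Figure D4:**
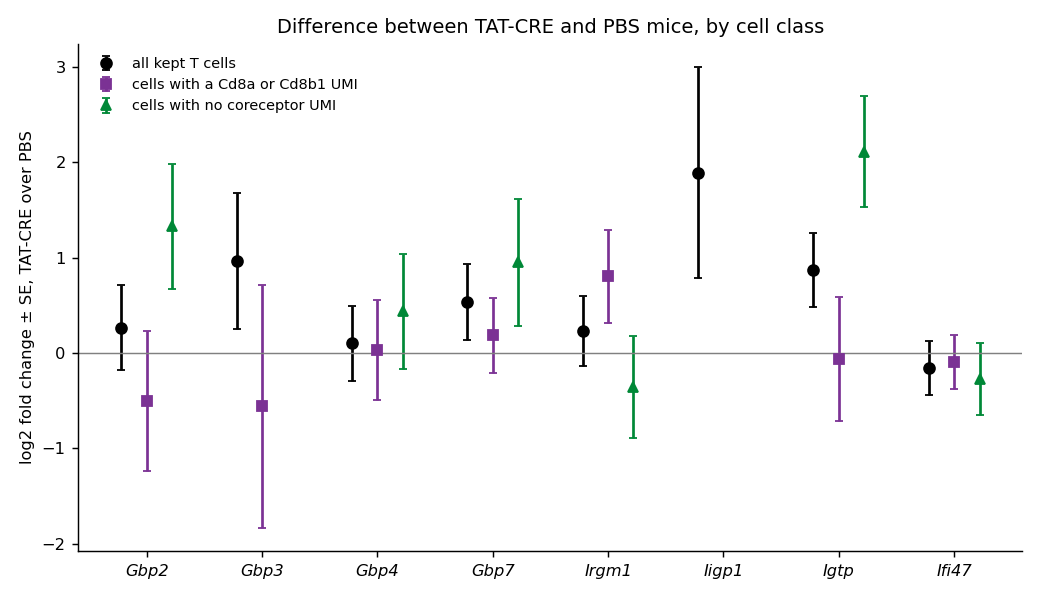
Log2 fold change of TAT-CRE over PBS mice with its SE for each member, in all kept T cells, in cells with a Cd8a or Cd8b1 UMI and no Cd4 UMI, and in cells with no coreceptor UMI; genes too rare for a test in a class have no point. Igtp at 2.11 in cells without a coreceptor UMI lies farthest from 0 relative to its error, while its value in Cd8 cells is -0.060.

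The rest of the interferon-gamma pathway was followed with a list of 28 genes by role, of which 23 were tested in all kept cells. None passed the adjusted threshold of edgeR's quasi-likelihood test in either direction, 15 were higher and 8 lower in TAT-CRE mice, and the median log2 fold change was 0.19. Every TAT-CRE mouse was above both PBS mice in 5 of the 23 and below both in 1, against 10.3% and 7.22% of all genes tested. Without TAT-CRE 208, 22 were tested, with 12 higher, 10 lower, none called and a median of 0.076. The ligand gene Ifng itself had 3 UMIs, 2 in 1 cell of TAT-CRE 208 and 1 in PBS 216. The receptor chain gene Ifngr1 was found in 20.8% of cells, at 267, 350 and 255 CPM in the TAT-CRE mice against 393 and 260 CPM in the PBS mice, while Ifngr2, the signalling chain, had 17 UMIs in all.

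Among the kinases, Jak1 was below both PBS mice in every TAT-CRE mouse, at 435, 444 and 360 CPM against 530 and 496 CPM (-0.39 ± 0.22). Jak2 was above them, at 39.0, 49.7 and 109 CPM against 21.6 and 33.4 CPM (1.22 ± 0.59). Of the transcription factors, Irf1 was at 30.3, 41.4 and 35.7 CPM in TAT-CRE mice against 55.9 and 38.1 CPM in PBS mice, and Nlrc5, the activator of class I major histocompatibility genes, at 88.1, 138 and 116 CPM against 97.3 and 172 CPM. Both had negative values, of -0.48 ± 0.51 and -0.34 ± 0.33, and neither passed the test.

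All 4 inhibitors had positive values, Socs1 at 0.15 ± 0.47, Socs3 at 1.13 ± 0.68, Ptpn2 at 1.27 ± 0.45 and Pias1 at 0.27 ± 0.54, and in Ptpn2, a phosphatase that acts on JAK1, the groups did not overlap (89.6, 88.3 and 56.1 CPM in TAT-CRE mice, against 30.6 and 29.8 CPM in PBS mice). Of 14 other targets tested, 10 were higher and 4 lower. In 3 of them every TAT-CRE mouse was above both PBS mice, against 10.3% of all genes tested. These were Psmb8 and Psmb9, subunits of the immunoproteasome (0.28 ± 0.22 and 0.71 ± 0.37), and Cxcl10, a chemokine that attracts T cells (4.95 ± 1.14). Cxcl10 had 32, 46 and 5 UMIs in TAT-CRE 207, 208 and 215, against 1 UMI in each PBS mouse, in 18 cells in all. It was called over all kept cells by edgeR when rare genes were not filtered out (4.94, adjusted p = 0.00231), and without TAT-CRE 208, its highest mouse, it was too rare for a test. The class I genes B2m, H2-K1 and H2-D1, found in 67.2% to 92.1% of cells, lay between -0.0080 and 0.10.

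**Figure D5:**
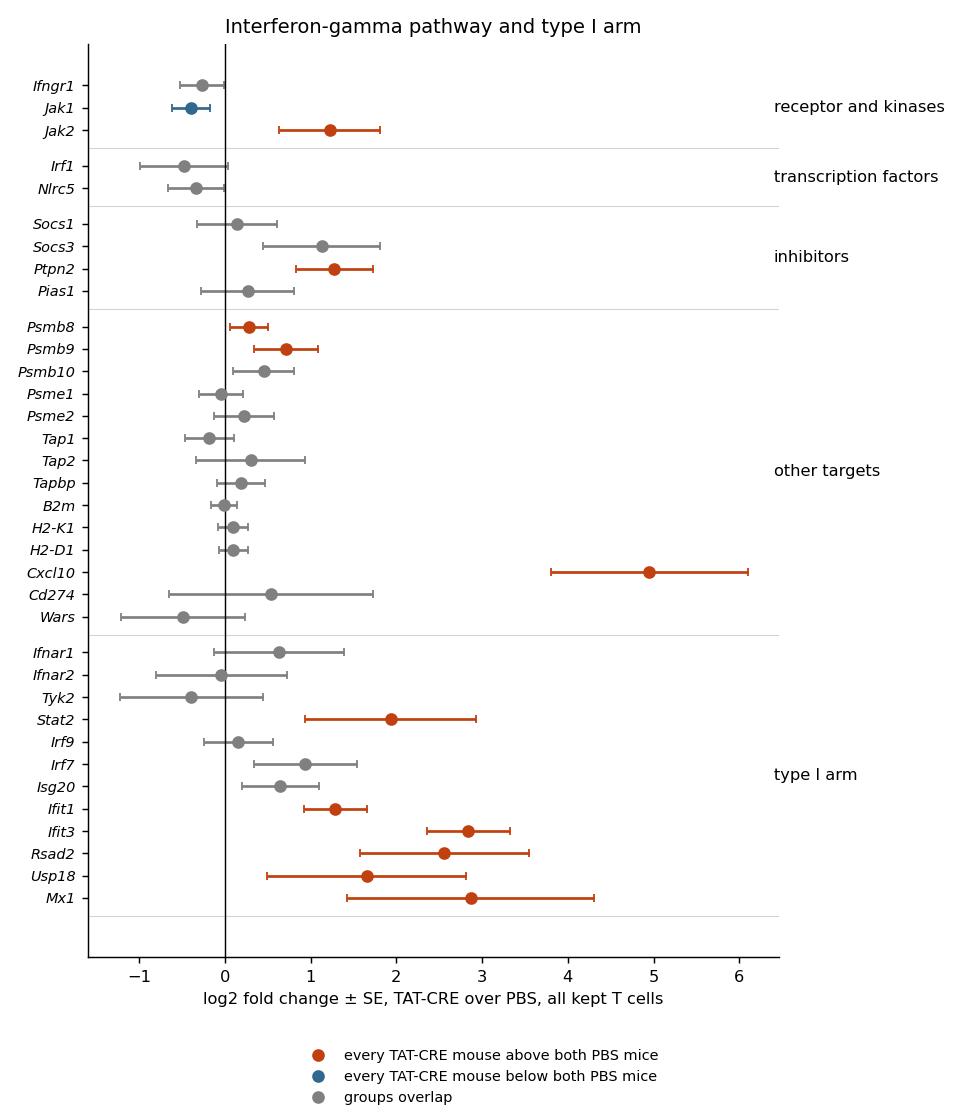
Log2 fold change of TAT-CRE over PBS mice with its SE, in all kept T cells, for the tested genes of the interferon-gamma pathway by role and of the type I interferon arm. Colour marks genes in which every TAT-CRE mouse was above (orange) or below (blue) both PBS mice. Cxcl10 at 4.95 lies farthest to the right, and Jak1 is the only gene in blue.

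The type I arm, listed as 14 genes because the GTPase genes can answer to it as well, had 12 tested, with 10 higher, 2 lower, none past the adjusted threshold of edgeR's quasi-likelihood test and a median of 1.11. DESeq2 called Ifit3, an antiviral gene of this list (2.86, adjusted p = 0.00712), as did edgeR without a filter on low counts (2.84, adjusted p = 0.000704), whereas its adjusted p with the filter was 0.372. Ifit3 ranged between 69.7 and 212 CPM in the TAT-CRE mice, against 14.4 and 16.7 CPM in the PBS mice, and at 2.51 ± 0.51 without TAT-CRE 208. In 6 of the 12 every TAT-CRE mouse was above both PBS mice, against 10.3% of all genes tested. Among the 6 were Ifit1, an antiviral RNA-binding protein (1.29 ± 0.36), and the antiviral genes Rsad2 (2.56 ± 0.99) and Mx1 (2.87 ± 1.44). Without TAT-CRE 208, 9 of the list were tested, with 8 higher and a median of 0.62. In both TAT-CRE mice left, 3 of the 9 were above both PBS mice, against 13.3% of 6001 genes, and 1 was below both. Ifit1 was then at 1.04 and Rsad2 at 1.91, and Mx1 was too rare for a test. Members were found in cells that held type I targets more often than expected. Of the 138 cells with a UMI of Isg15, Ifit1, Ifit3, Rsad2, Usp18 or Mx1, 75 held a member, against 57.3 expected within mouse and depth quartile. For Gbp7 it was 28 cells against 14.1, for Gbp2 18 against 8.32, and for Ifi47 36 against 24.2. Over pairs of each member with each of the 14 genes, the ratio was 1.80, and it was 2.00, 1.62 and 2.29 in TAT-CRE 207, 208 and 215, against 1.63 and 1.30 in PBS 216 and 218.

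With the receptor and kinase genes the same ratio was 1.05, with the transcription factors 1.17, with the inhibitors 1.22 and with the other interferon-gamma targets 1.09. These ratios are taken over summed pairs, so common genes weigh most. Among the targets, B2m, H2-K1 and H2-D1 were in 92.1%, 77.7% and 67.2% of cells, and a gene in nearly all cells cannot lie far above 1. No gene of the type I list was in more than 4.79% of cells, so its ratio cannot be ranked against that of the targets. Across 1766 genes found in at least 5% of cells, the ratio with any member had a median of 1.04 and a central 95% of 0.857 to 1.25. The 10 genes with the highest ratio were Eif4g3 (1.50, 49 cells against 32.6), Gm22710, Pebp1, Lgals3bp, Def6, Cbl, Lpxn, Gltp, Celf1 and Ptk2b, the last at 1.33. The ranking rests on 42 to 60 cells per gene and carries no test.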

How the data were processed

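The authors deposited 1 table per mouse with raw counts of UMIs for every gene in every well; a column of counts in the deposited well table gives the cells sorted into each well, per the file headers. The build mm10 and bcl2fastq 2.15.0.4 are named in the submitters' processing notes; aligner, annotation, read filters and use of strand are not given there or elsewhere in the sources used here. Another column of that table, with text values, gives the amplification batch, which ties wells to mice, per the file headers.

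Counts of kept cells (362457 to 839188 UMIs per mouse) were summed per mouse and tested with edgeR 4.0.16 (R 4.3.3; TMM, filterByExpr, quasi-likelihood, Benjamini-Hochberg over all genes tested); a log2 fold change is TAT-CRE over PBS. CPM is UMIs per 1000000 of the mouse's kept UMIs outside spike-ins; it was not divided by gene length, so levels are compared between mice, not genes. The p-values measure the spread between 5 libraries, each taken as 1 mouse. Library pairs differed far beyond sampling noise (chi-square per degree of freedom 4.42 or more over 5655 genes) and shared 0 well IDs. Thinning used the exact hypergeometric expectation, at 400 UMIs per cell and, as an alternative, 800. Expected co-detection was the product of the shares of both genes within mouse and depth quartile. Doublets were not called, since wells were sorted with 1 cell each. The edgeR fit was tested on simulated counts for all kept cells, for Cd8 cells and for Cd8 against Cd4 cells.

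The members and all gene lists were chosen with earlier results of these data known; 2 genes of the lists are not reported here and do not enter the lists' counts. Named genes are the 8 members, genes of the lists, and the 10 genes outside the members with the highest ratio of co-detection with any member, among those in at least 5% of kept cells and in at least 20 cells with a member. Alternatives were DESeq2 1.42.0, its size factors, no filter on low counts, each mouse left out, ribosomal RNA genes left out, no mitochondrial limit, and a minimum of 200 UMIs; capping each gene at 1 count per cell, the comparison in cells without a coreceptor UMI, the interaction and the interferon lists with a mouse left out were added after the data were seen. The ISRE was first searched with 1 more A at its end; the shorter core was taken for how sequences may be written here, not for a biological reason, and with both results known.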

Additional observations from a re-analysis of the deposited data

Results flagged for a closer look

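In the difference between Cd8 and Cd4 cells, 1 of the 5 mice lay far from the others for Gbp2 and for Iigp1. For Gbp2, TAT-CRE 215 was at -22.8 CPM, while the other 4 mice lay between 52.3 and 71.2 CPM, a gap of 0.799 of the whole range. The value of TAT-CRE 215 comes from 2 UMIs in 1 Cd4 cell. For Iigp1, TAT-CRE 208 was at 102 CPM and the other 4 at 0 to 11.7 CPM, a gap of 0.885; its Cd8 cells held 10 UMIs in 2 cells, and Cd4 cells held none in any mouse. Of 18 such sets of 5 mice these 2 had a gap above 0.71, a limit that about 1 in 20 sets of independent normal values pass. The 18 sets share their Cd8 values and these 2 rest on few UMIs, so that rate cannot be applied to them.

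Members were also seen in wells that the comparisons leave out. The 195 wells over the mitochondrial limit held 144 member UMIs (573 CPM, against 770 CPM in kept cells), 52 of them of Ifi47. The 223 wells under 400 UMIs held 41, of which 19 were of Gbp7 in 3 wells. The 20 empty wells held 1.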

How the results depend on the processing

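Under all 217 alternative values of the members' log2 fold changes, over all kept cells, Cd8 cells, Cd8 against Cd4 cells and cells without a coreceptor UMI, no member passed an adjusted p of 0.05 (lowest 0.0938, Gbp7 in cells without a coreceptor UMI when PBS 216 was left out). Depth limits these results: Iigp1 had 41 UMIs, and the PBS group has 2 mice. Where 1 PBS mouse was left out, the lone mouse was assumed to vary like the others. The cause of the changes below was not tested.

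Over all kept cells, genes called numbered 0, and 1 with DESeq2 (Ifit3), 8 without a filter on low counts (among them Ifit3 and Cxcl10) and 1 with each cell counted once per gene (H2-K2). In Cd8 cells they numbered 0, and 1 without the filter (Cxcl10) and 1 with each cell counted once (H2-K2). Between Cd8 and Cd4 cells they numbered 2, and 4 with DESeq2, 57 without the filter, 0 with each cell counted once, and 1 to 3 with a mouse left out (1 without TAT-CRE 215, 3 without TAT-CRE 208). In cells without a coreceptor UMI they numbered 0, and 0 to 1 with a mouse left out (Gzmc, without PBS 216). No called gene named here is a member.

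Signs turned in all kept cells for Gbp2 (-0.10 to 0.51 with a mouse left out), Gbp4 (-0.23 to 0.57, and -0.11 without the mitochondrial limit), Irgm1 (-0.020 to 0.52) and Ifi47 (-0.35 to 0.042, and 0.064 with each cell counted once). In Cd8 cells they turned for Gbp3 (-1.41 to 1.43), Gbp4 (-0.22 to 0.30, and -0.055 without the filter), Gbp7 (-0.14 to 0.32), Igtp (-0.60 to 0.26) and, with each cell counted once, Ifi47 (0.078). In cells without a coreceptor UMI they turned for Irgm1 (-0.74 to 0.092) and Ifi47 (-0.57 to 0.092).

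Between Cd8 and Cd4 cells, Gbp7 turned with a mouse left out (-0.26 to 0.42), without the filter (0.79) and without ribosomal RNA genes (0.021). Without the replicate block, 2 genes were called and Ifi47 turned to -0.056. No paired analysis was possible between TAT-CRE and PBS mice because the groups share no replicate number. The thinned shares turned with a mouse left out for Gbp4 (-0.326 to 0.782 percentage points), Gbp7 (-0.179 to 2.33) and Ifi47 (-1.02 to 0.648).

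The summed level of the members was 207 CPM higher in TAT-CRE mice, and 125 to 248 CPM with a mouse left out (125 without TAT-CRE 208), 192 to 267 CPM under the other alternatives. The 267 CPM is the value outside the ribosomal RNA genes, where TAT-CRE 208 had the lowest sum of the TAT-CRE mice, at 1459 CPM. The thinned share of cells with a member was 2.33 to 4.35 percentage points higher with a mouse left out and 2.31 unthinned. The ratio of co-detection was 1.63 with expectation within mouse only.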

Other observations

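Other interferon-inducible GTPase genes were listed as 16, of which 15 had UMIs and 7 were tested. Of these, 4 were higher and 3 lower in TAT-CRE mice, none passed the adjusted threshold of edgeR's quasi-likelihood test, and the median log2 fold change was 0.0021. The best detected was 9930111J21Rik2, in 8.57% of cells, at 147, 93.8 and 64.6 CPM in TAT-CRE 207, 208 and 215, against 97.3 and 145 CPM in PBS 216 and 218. Gbp8 had 47.7, 85.5 and 20.4 CPM in TAT-CRE mice and 28.8 and 84.6 CPM in PBS mice, and Gbp9 had 27.4, 66.2 and 44.2 CPM against 64.9 and 19.1 CPM. Both overlapped between the groups.

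Of the 7 genes tested, every TAT-CRE mouse was above both PBS mice in 0 and below both in 0, against 10.3% and 7.22% of all genes tested. Gbp5, too rare for a test, had UMIs in TAT-CRE mice only, with 3, 5 and 13 UMIs against 0 in both PBS mice, in 9 cells. Gm4951, too rare as well, had UMIs in PBS 218 only, with 6 in 2 cells. How many genes this rare have UMIs in a single group was not counted. Irgm2, which shares letters with Igtp, stood at 17.3, 63.5 and 17.0 CPM in TAT-CRE mice and 9.01 and 17.9 CPM in PBS mice, with TAT-CRE 208 the highest mouse, as it was for Igtp. Gvin1, a very large GTPase, and Tgtp1 were found with 1.16 and 1.20 UMIs per positive cell, fewer than any of the 8 members.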
